A study of Mus musculus with 9 samples.

Results

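The untreated RAW-Blue libraries, labelled None, form 1 of the 3 groups of the series and 3 of its 9 samples. They were taken by their label and described by absolute transcript level, without a contrast against any treated group. RAW-Blue is a mouse macrophage line, supplied by InvivoGen and derived from RAW 264.7 cells, that carries an integrated reporter for inflammatory signalling. All cells grew in DMEM with 10% fetal bovine serum, Normocin, Zeocin and Pen-Strep. The remaining groups received lipopolysaccharide at 1 µg/ml for 24 hours (LPS), or plant nanovesicles for 16 hours and then the same stimulus (LPS-PjELNs), and are not analysed here. The parental line came from a tumour that Abelson leukaemia virus induced in a male mouse, so a single transformed line stands for the macrophage. Whether each replicate was a culture of its own is not stated in the labels.

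Macrophages engulf and digest particles, sense microbes through surface, endosomal and cytosolic receptors, and secrete proteins that recruit or instruct other cells. Their identity depends on the transcription factor PU.1, encoded by Spi1, and on signalling through the receptor for macrophage colony-stimulating factor, Csf1r. Macrophages of different organs add further factors and receptors to this shared programme.

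The values are TPM (transcripts per 1000000 transcripts) and estimated read counts. TPM are adjusted for transcript length and can be set side by side between genes, though less safely for very short transcripts such as mt-Atp8. Counts are not per length and are scaled to 1000000 per library where given as CPM. The 3 libraries held 17028457, 17547623 and 17665200 counts. Genes typed protein_coding took 95.3% to 95.5% of counts and 87.9% to 88.6% of TPM. A gene with a mean of at least 1 TPM is here said to be present, a gene with counts but a lower mean is low, and a gene without a count in any library is at 0. A gene at 0 may still reach 3 counts over the group, or 0.0574 CPM. This limit covers counting error only. A value after ± is the SD over the libraries (n = 3).

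Transcripts were concentrated in a small set of genes. Of 21629 protein_coding genes, 10157 (47.0%) were present, 3110 were low and 8362 (38.7%) were at 0. The class from 1 to 10 TPM had 3147 genes and the class from 10 to 100 had 6001, with 870 genes from 100 to 1000 and 139 over 1000. These 139 genes, 0.643% of the total, took 46.1% ± 0.247 of all TPM, whereas the 6001 genes from 10 to 100 took 19.6% ± 0.351. By counts the order was reversed, with 25.9% ± 0.25 over 1000 TPM and 39.5% ± 0.232 from 10 to 100 TPM. The median gene stood at 0.313 TPM, and the median present gene at 18.2 TPM. The top 10 genes took 14.4% of TPM, and 122 genes took 50% of the TPM of protein_coding genes. The class was the same in all 3 libraries for 20707 genes (95.7%).

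**Figure D1:**
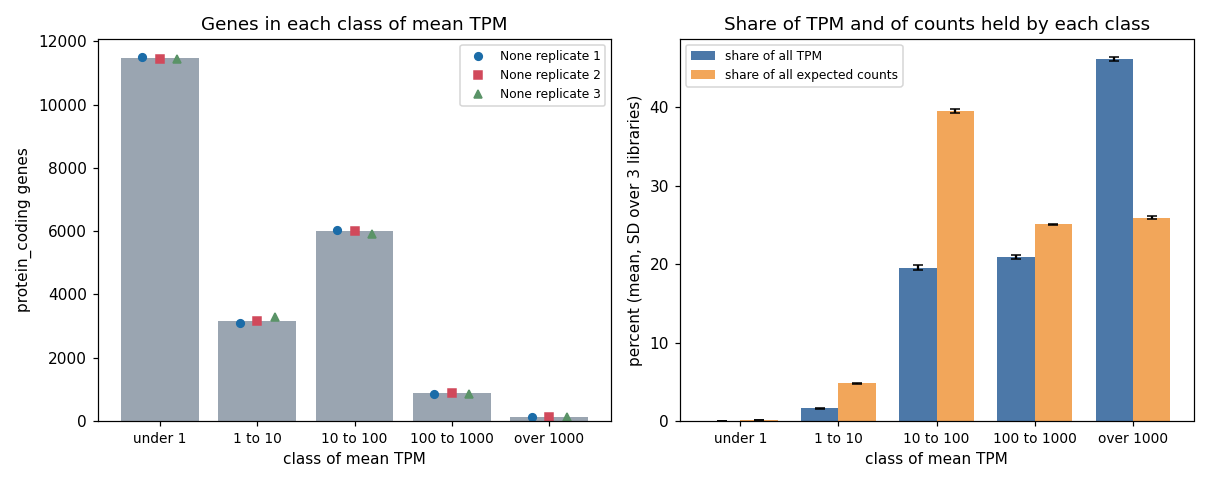
Left, number of protein_coding genes (y axis) in each class of mean TPM (x axis), with bars for the classes of the mean and points for each untreated library. Right, percent of all TPM and of all expected counts (y axis) held by the genes of each class, as mean with SD over 3 libraries. The 139 genes over 1000 TPM hold 46.1% of TPM and 25.9% of counts.

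At the class bounds the order of genes rested on differences smaller than the spread. Lrp11 (0.997 ± 0.119 TPM) and Zfp467 (0.997 ± 0.0493) lay just under 1 TPM, and Gprc5c (1.00 ± 0.266) and Lrrc17 (1.00 ± 0.288) were at the bound, which belongs to the upper class. Sirt4 (9.99 ± 1.68) and Cdc25c (9.99 ± 0.768) stood beside Stau2 and Nfrkb at the 10 TPM bound. Tmpo (99.9 ± 8.85) and Sfpq stood beside Pdhb (100.1 ± 3.2) and Ensa (100.2 ± 5) at the next. The 1000 TPM bound separated Serinc3 (988 ± 52.1) and Spp1 (995 ± 190) from Rps20 (1002 ± 36.8) and Slc25a5 (1010 ± 42.6).

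Protein synthesis, respiration and glycolysis made up most of the highest class. Of 79 ribosomal protein genes, a set taken by symbol, 77 exceeded 1000 TPM, with a median of 2723 TPM over all 79. These 77 took 23.7% ± 0.38 of all TPM. The set leaves out paralogues and copies such as Rpl36al (1042 ± 84.7 TPM) and Rps18-ps6 (2772 ± 573 TPM). Of 21 genes on the glycolysis list 9 exceeded 1000 TPM and took 2.45% ± 0.0374. Pkm, the pyruvate kinase, stood at 4960 ± 153 TPM, Gapdh at 4101 ± 69.2 and Aldoa at 4007 ± 232. Lactate dehydrogenase came from its A gene alone as far as could be detected: Ldha had 3145.7, 3237.4 and 3217.5 TPM in the 3 libraries and Ldhb was at 0. The translation factor Eef1a1 had 17097 ± 621 TPM. The iron storage subunits Ftl1 and Fth1 had 7266 ± 514 and 5506 ± 230 TPM. Of the 23 genes on the actin list 5 passed 1000 TPM, with the monomer-binding Tmsb4x at 2600 ± 149 and Actb at 1593 ± 35.

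Ribosomal protein messages often begin at a pyrimidine tract, which links their translation to growth signals. A C followed by at least 5 pyrimidines, read on the gene's strand from 5 bases before the RefSeq start to 11 bases from the start, was present at 22 of 50 ribosomal protein starts (44%), against 10.1% of all 14030 starts. Over 1000 TPM the share was 30.2% of 86 starts, and 11.1% of the 36 outside the ribosomal protein set. The following 30 bases around the start are shown, 15 on either side, with the tract in capitals, for 4 ribosomal protein genes over 1000 TPM that have one.
Rps27, chr3:90213634-90213663, minus strand: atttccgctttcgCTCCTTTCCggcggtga
Rps18, chr17:33955651-33955680, minus strand: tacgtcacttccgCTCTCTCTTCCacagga
Rpl18, chr7:45718056-45718085, plus strand: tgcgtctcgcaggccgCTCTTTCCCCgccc
Rps9, chr7:3704026-3704055, plus strand: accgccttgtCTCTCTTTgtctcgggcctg
These sequences are RefSeq's on GRCm38.p6. The 4 genes had 8488 ± 81.9, 5141 ± 245, 4000 ± 186 and 3967 ± 226 TPM. A match is a description of the letters and not a measured start.

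Mitochondrially encoded genes led the ranking, with limits in the first rank and in how reads were assigned. The 13 protein genes took 7.82% ± 0.493 of TPM, and 10 of them exceeded 1000 TPM. mt-Atp8 ranked highest of all genes at 31277 ± 2846 TPM, on 3966 counts per library over a transcript of 204 bases. mt-Co1, a cytochrome oxidase subunit, had 18817 ± 636.5 TPM on 374760 counts over 1545 bases. By counts mt-Co1 stood 94.6 ± 5.61 times above mt-Atp8, and in TPM 0.604 ± 0.0446 times as high. The transcript of mt-Co1 is longer by a far smaller factor than 94.6. The first rank of mt-Atp8 in TPM therefore does not follow from counts per base. Similarly, mt-Nd4l had 2038 TPM on 1667 counts over 297 bases, and mt-Nd2 had 2328 TPM on 27993 counts over 1038 bases. The deposited TPM are thus not simply counts per annotated base, and the cause was not tested. mt-Co2 had 370 ± 53.5 TPM and mt-Co3 had 973, 319 and 925 TPM.

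A stretch of chromosome 1 (chr1:24612407-24616197) holds 6 unprocessed pseudogenes that took a further 6.19% ± 0.328 of TPM. Of the 31-base words of these pseudogenes 97.2% to 100% also occur in a mitochondrial gene. Gm28661 shares all of its words with mt-Co2, and of the counts of this pair 1.56% ± 0.204 were assigned to mt-Co2. Gm28437 shares all of its words with mt-Co3, which received 5.18%, 1.87% and 5.02% of the counts of the pair. The summed counts of the mt-Co3 pair varied by 5.06% between libraries, against 49.3% for mt-Co3 alone in CPM. Gm29216 shares 97.2% of its words with mt-Co1, which received 94.2% ± 0.667 of the counts of that pair. The levels of mt-Co2, mt-Co3, mt-Atp6, mt-Nd3 and mt-Nd4l, and to a smaller degree mt-Co1, are therefore uncertain. The same holds for any gene whose reads are shared with a near-identical copy.

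Families of specialised tissues were nearly silent. Of 1137 olfactory receptor genes 1102 were at 0 and 1, Olfr933 (2.17 TPM), was present. Of 316 vomeronasal receptors 310 were at 0, as were 33 of 35 bitter taste receptors, 56 of 57 keratin-associated proteins, 28 of 28 alpha-defensins and 13 of 13 interferon alpha genes. Of 100 cytochrome P450 genes 7 were present, led by Cyp27a1 (46.7 TPM), which oxidises cholesterol. By contrast 39 of 40 proteasome genes and 34 of 35 nuclear NADH dehydrogenase genes were present, with medians of 103 and 140 TPM.

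The label was checked against macrophage identity genes. Of 20 such genes 15 (75%) were present, beside 47.0% of all protein_coding genes, with a median of 214 TPM. The list was chosen with earlier results of these data known. Lyz2, the macrophage lysozyme (chr10:117277331-117282321), had 10593, 9363 and 9185 TPM. Lgals3, a secreted lectin, had 2953, 2727 and 2725 TPM. The adaptor Tyrobp had 2995, 2568 and 2435 TPM and the lysosomal membrane protein Laptm5 1415, 1027 and 946 TPM. Cd68 stood at 831 ± 64.8, Csf1r at 527 ± 64, Cd14 at 498 ± 17.1, Mpeg1 at 482 ± 72.2, Itgam at 172 ± 8.99 and Adgre1, which encodes F4/80, at 94.5 ± 6.17. Mertk, Cd163 and C1qa, which mark many tissue macrophages, were at 0 in every library, and Mrc1 (0.19) and Ms4a7 (0.07) were low.

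Markers of other cells were rare. Of 101 protein_coding markers of 12 other cell types 5 (4.95%) were present and 65 were at 0, and together the markers took 0.0178% to 0.0196% of TPM. All 8 NK cell, all 8 mast cell and all 7 hepatocyte markers were at 0. The 5 present were Bst2 (103 ± 7.99 TPM), Mbp (62.6 ± 7.34), the granulocyte growth factor receptor Csf3r (11.9 ± 1.14), Vwf (4.11 ± 0.826) and Lck (1.76 ± 0.306). The defining genes Cd3d, Cd3e, Ms4a1, Ly6g, S100a9, Epcam and Col1a2 gave no count, and Flt3 itself gave 0.00667 TPM. The immunoglobulin constant gene Ighm, typed separately, had 358, 311 and 300 TPM, while the light chain Igkc was at 0. In bulk RNA, fewer cells of a type and less RNA per cell cannot be told apart.

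Macrophage identity genes had a lower promoter CpG content than abundant genes at large. Promoters are the 250 bases before the RefSeq start, compared for 14030 protein_coding genes that have a single entry there. The ratio of observed to expected CpG had a median of 0.217 for genes at 0, 0.413 for low genes, 0.73 from 1 to 10 TPM, 0.786 from 10 to 100 TPM and 0.781 over 1000 TPM. The 10 present identity genes in the table had a median of 0.207, the 84 present receptor genes 0.404 and the 32 present secreted genes 0.251. The letters TATAAA, looked for on the gene's strand from 40 to 16 bases before the start, were found in 5.44% of promoters at 0, 0.725% from 10 to 100 TPM and 3.49% over 1000 TPM. The letters GAGGAA, the core of PU.1 sites, occurred on either strand in 22.0% of all promoters and in 6 of the 10 identity promoters. Among receptors the core lay in 44.0% of present promoters and 37.5% of those under 1 TPM. Among secreted genes the order was reversed, with 8 of 32 present promoters and 22 of 61 under 1 TPM. The longer PU.1-type letters GAGGAAGT occurred in 2.22% of all promoters and in 0 of the 10 identity promoters. Among receptors the longer letters lay in 5.95% of present promoters and 5.36% of those under 1 TPM. Binding of PU.1 was not tested.

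Identity genes under 1 TPM (3 in the table) had a median ratio of 0.22, near that of the present ones. The 120 bases before the outermost annotated start are shown, with each CG in capitals, for 3 genes of high level and then 2 genes at 0 (GRCm38.p6, RefSeq).
Lyz2, chr10:117282322-117282441, minus strand: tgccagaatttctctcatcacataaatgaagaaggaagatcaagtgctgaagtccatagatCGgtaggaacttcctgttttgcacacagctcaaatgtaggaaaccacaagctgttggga
S100a4, chr3:90603650-90603769, plus strand: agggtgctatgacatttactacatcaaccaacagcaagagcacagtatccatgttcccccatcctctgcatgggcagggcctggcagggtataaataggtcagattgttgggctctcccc
Cd68, chr11:69666171-69666290, minus strand: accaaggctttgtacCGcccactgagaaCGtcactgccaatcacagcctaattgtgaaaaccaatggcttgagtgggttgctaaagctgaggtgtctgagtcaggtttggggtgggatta
Mertk, chr2:128698795-128698914, plus strand: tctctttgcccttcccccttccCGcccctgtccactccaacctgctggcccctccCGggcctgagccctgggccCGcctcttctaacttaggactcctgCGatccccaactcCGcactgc
Cd163, chr6:124304531-124304650, plus strand: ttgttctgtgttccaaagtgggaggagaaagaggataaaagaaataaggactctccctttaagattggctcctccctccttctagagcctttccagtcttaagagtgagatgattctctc
Lyz2 and S100a4, at 9714 and 9247 TPM, have 1 and 0 CG pairs here, and their ratios over 250 bases were 0.0953 and 0.0978. Cd68, at 831 TPM, has 2 CG pairs and a ratio of 0.269. Of the genes at 0, Mertk has 5 CG pairs and a ratio of 0.351, and Cd163 has 0 pairs and a ratio of 0. In these 5 promoters CG content did not separate genes of high level from genes at 0.

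Coding length differed between classes. The longest coding sequence of a gene in GENCODE M21 had a median of 954 bases at 0, 1599 bases from 1 to 10 TPM, 1344 bases from 10 to 100 TPM, 795 bases from 100 to 1000 TPM and 516 bases over 1000 TPM. Outside the ribosomal protein set the median of the other 62 genes over 1000 TPM was 721.5 bases. TPM is itself adjusted for transcript length, so these classes are not independent of length. Coding length was not compared between classes of counts.

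Of 217 listed receptors 131 (60.4%) were at 1 TPM or more, beside 47.0% of all protein_coding genes, with a median of 4.78 TPM. The lists were chosen with earlier results known and leave out the 1137 olfactory and 316 vomeronasal receptors, nearly all at 0. These shares therefore do not compare receptors as a whole with genes at large. Of 12 Toll-like receptors 8 were present. Tlr2, which recognises bacterial lipopeptides, had 94.0, 83.0 and 78.6 TPM. Tlr7, which recognises single-stranded RNA in endosomes, had 80.0, 69.8 and 68.8 TPM, so that the ranges of these leading receptors overlapped, although Tlr2 was higher in each library. Tlr13, a sensor of bacterial ribosomal RNA, had 58.2, 47.4 and 46.0 TPM. Tlr4 (chr4:66827584-66842800), the receptor for lipopolysaccharide, had 29.98, 28.96 and 27.62 TPM. In each library Tlr2 exceeded Tlr4, by 2.95 ± 0.162 times in TPM and 2.18 ± 0.167 times in counts. Tlr6 (11.2 ± 0.748) and the DNA sensor Tlr9 (10.5 ± 1.71) lay near 10 TPM, with Tlr8 at 4.54 ± 1.01 and Tlr1 at 2.94 ± 0.242. Tlr3, the sensor of double-stranded RNA, was low at 0.35, 0.75 and 0.35 TPM, and the flagellin receptor Tlr5 had 0.0167 TPM. Tlr11 and Tlr12 were at 0.

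The partners of Tlr4 differed widely in level. Cd14, which hands lipopolysaccharide to the receptor, had 481.5, 515.6 and 496.8 TPM, 17.3 ± 1.06 times Tlr4. Ly96, which encodes the lipopolysaccharide-binding subunit MD-2, had 14.65, 13 and 12.38 TPM, so Tlr4 exceeded it by 2.17 ± 0.106 times per length. Lbp, the serum protein that extracts lipopolysaccharide, was at 0. The related pair of Cd180 (52.7 ± 2.7) and its partner Ly86 (151.5 ± 13.6) was also present. Unc93b1, which carries endosomal Toll-like receptors, stood at 261 ± 32 TPM and the chaperone Hsp90b1 at 338 ± 20.9. The adaptors followed with Myd88 at 50.4 ± 2.69, Ticam2 at 21.4 ± 2.06, Ticam1 at 15.1 ± 0.918 and Tirap at 7.64 ± 0.566. In all 17 of 18 genes of this list were present.

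**Figure D2:**
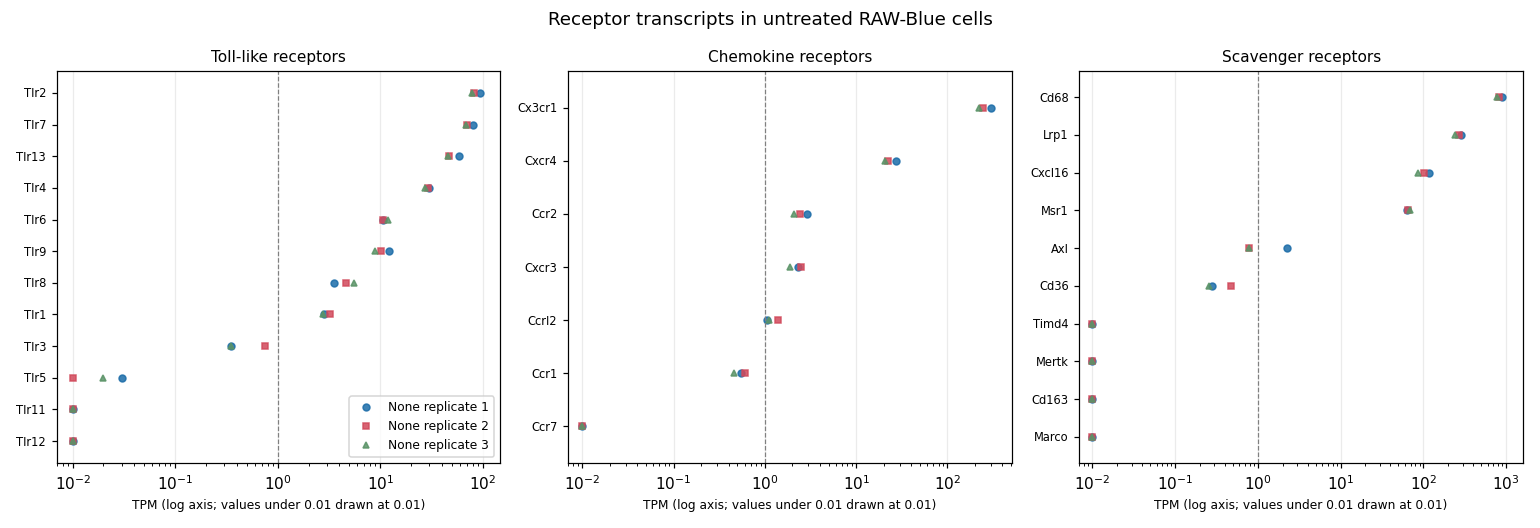
TPM in each untreated library (x axis, logarithmic, values under 0.01 drawn at 0.01) for the genes of the Toll-like, chemokine and scavenger receptor lists named in the text (y axis), with the dashed line at 1 TPM. Tlr2, Cx3cr1 and Cd68 lead their lists, and genes without a count, such as Ccr7 and Marco, sit at the left edge.

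Among 21 protein_coding cytosolic sensors 15 were present, and 1 was at 0. Aim2, which senses DNA, had 51.7, 57.4 and 54.9 TPM, and the inflammatory caspase Casp1 38.2, 39.5 and 42.1 TPM. Sting1 stood at 31.7 ± 2.34, Mavs at 26.2 ± 2.16, Nlrp3 at 19.1 ± 0.871 and Cgas at 6.85 ± 0.19. Pycard (chr7:127989708-127993867), the ASC adaptor that joins inflammasome sensors to Casp1, was the member at 0. Nearby on chromosome 7, Trim72 had 0.0467 TPM and Itgam, beyond it, 172 ± 8.99. Among sensors of RNA, Ddx58 had 4.75 ± 0.56 TPM and Ifih1 0.977 ± 0.139, just under the limit for presence.

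Of 41 growth factor and cytokine receptors 25 were present. Csf1r, the macrophage growth factor receptor, had 595, 517 and 468 TPM, and it exceeded Csf2ra, the receptor subunit for granulocyte-macrophage colony-stimulating factor, by 21.01 ± 1.74 times. The interferon receptor subunits were all present, with Ifnar2 at 89.5 ± 11, Ifngr1 at 50.7 ± 5.68, Ifngr2 at 35.5 ± 2.94 and Ifnar1 at 22.8 ± 0.0964. The interleukin 10 receptor chains Il10ra (83.4 ± 10.6) and Il10rb (47.2 ± 1.02) and the tumour necrosis factor receptors Tnfrsf1a (53.1 ± 6.9) and Tnfrsf1b (48.8 ± 14.8) were present. Tnfrsf11a, the receptor for the osteoclast factor RANKL, had 12.1 ± 0.307 TPM. In all 9 receptors were at 0, among them both interleukin 1 receptors Il1r1 and Il1r2, Il18r1, Il2ra, Kit and Osmr. The interleukin 1 family chains Il18rap (5.14 ± 0.435) and Il1rap (3.42 ± 0.368) were present without these partners.

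Chemokine receptors were the sparsest receptor list. Of 23 members 5 (21.7%) were present, 9 were low and 9 at 0. Cx3cr1, the fractalkine receptor, had 301, 247 and 221 TPM, 104 ± 1.67 times Ccr2 (2.47 ± 0.414), the receptor of inflammatory monocytes. Cxcr4 had 27.0, 22.1 and 20.6 TPM. Cxcr3 (2.22 ± 0.299) and Ccrl2 (1.19 ± 0.189) were the other members present. Ccr1 (0.537) was low and Ccr7, which guides dendritic cells to lymph nodes, was at 0.

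Fc receptors and their adaptors were mostly present, with 8 of 11. The adaptor Fcer1g had 607, 518 and 485 TPM, and Tyrobp exceeded it by 4.97 ± 0.0442 times. Of the IgG receptors the low-affinity Fcgr3 stood at 87.4 ± 2.53 TPM, the inhibitory Fcgr2b at 61.4 ± 6.11, Fcgr4 at 25.6 ± 1.84 and the high-affinity Fcgr1 at 19.2 ± 1.92. The IgE receptor chains Fcer1a and Fcer2a were at 0.

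Receptors for debris included both abundant and undetected members. Of 20 scavenger receptors 9 (45%) were present and 8 at 0. These shares were near those of all protein_coding genes, with 47.0% present and 38.7% at 0. Cd68 had 902, 817 and 774 TPM, the endocytic receptor Lrp1 288, 268 and 240 TPM, and Msr1, which takes up modified lipoproteins, 63.9, 64.7 and 68.2 TPM. Marco, Cd163, Mertk and Timd4 were at 0 and Cd36 was low at 0.34 TPM. Axl, related to Mertk, had 2.28, 0.79 and 0.79 TPM, so it was above 1 TPM in None replicate 1 alone and averages 0.79 without that library. Of 23 genes on a list of C-type lectins, siglecs and TREM receptors 12 were present. The TREM receptor Trem2, which binds lipids, led at 398 ± 32.3 TPM, and the C-type lectin Clec5a followed at 118 ± 1.47. Cd33 (66.4 ± 13) and Clec4e (37.8 ± 2.71), the receptor for mycobacterial cord factor, followed. The beta-glucan receptor Clec7a, typed as a polymorphic pseudogene in the files, had 73.7, 51.5 and 50.1 TPM, and the mannose receptor Mrc1 was low.

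Of 22 receptors for complement, purines and lipid mediators 14 were present, led by the UDP receptor P2ry6 (72.3 ± 13). C5ar1 had 48.8, 49.7 and 33.5 TPM and C3ar1 30.9, 27.6 and 25.3 TPM. The ATP-gated channel P2rx7 stood at 12.6 ± 1.55 TPM. The formyl peptide receptors Fpr1 and Fpr2 were at 0, and the microglial P2ry12 had 0.01 TPM. Of 26 integrins and adhesion receptors 18 were present. Cd9 led at 613 ± 41.7 TPM, followed by Sirpa (369 ± 41.7), which receives the signal of Cd47, and Itga4 (285 ± 24.6). Itgam (chr7:128062640-128118491) had 179, 175 and 162 TPM beside its partner Itgb2 at 137 ± 7.01, while the nearby Itgax, the CD11c chain, had 1.87, 2.37 and 1.32 TPM. Vcam1 and Itgb3 were at 0.

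Lineage factors of myeloid cells were present in the majority, and those of other lineages were not. Of 46 myeloid factors 35 (76.1%) were present, beside 47.0% of all protein_coding genes, with a median of 21.3 TPM. The shares were 4 of 22 (18.2%) for other blood lineages and 1 of 22 (4.55%) for non-blood lineages. These lists were chosen with earlier results of these data known. Spi1 (chr2:91082390-91114366) had 285, 266 and 252 TPM. Cebpb, a partner of PU.1 in macrophages, had 109, 108 and 109 TPM, and Spi1 exceeded it by 2.47 ± 0.154 times. The interferon regulatory factors Irf5 (97.3 ± 6.66) and Irf8 (57.7 ± 5.59), Mef2c (74.4 ± 1.29) and Runx1 (51.0 ± 7.55) came next. Klf4 stood at 39.7 ± 7.2, Zeb2 at 37.9 ± 2.27 and Cebpa at 29.5 ± 6.2. Cebpb exceeded Cebpa by 3.77 ± 0.708 times. In all 6 myeloid factors were at 0, namely Maf, Runx3, Tfec, Spic, Batf3 and Myb.

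**Figure D3:**
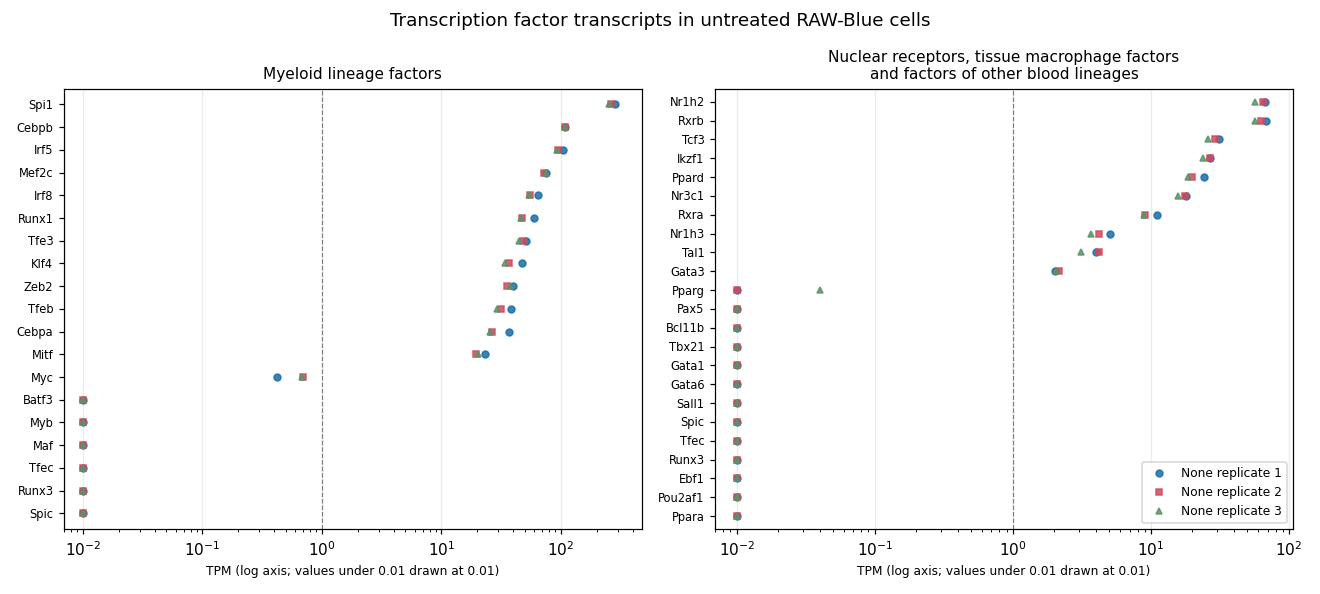
TPM in each untreated library (x axis, logarithmic, values under 0.01 drawn at 0.01) for the named myeloid lineage factors (left) and for named nuclear receptors, tissue macrophage factors and factors of other blood lineages (right). Spi1 leads at 252 to 285 TPM, and Maf, Runx3, Gata6 and Ebf1 are among the genes without a count.

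Some related nuclear receptors differed in level. The liver X receptor gene Nr1h2 had 67.5, 64.8 and 56.6 TPM, 14.6 ± 1.15 times Nr1h3 (4.34 ± 0.691). The retinoid X receptor gene Rxrb had 68.5, 62.7 and 56.6 TPM, 6.49 ± 0.37 times Rxra in TPM and 2.68 ± 0.2 times in counts. Ppard stood at 20.96 ± 2.9 TPM, whereas Pparg, the factor of alveolar macrophages, was low at 0.0133 and Ppara was at 0. The glucocorticoid receptor Nr3c1 had 17.1 ± 1.15 TPM. Of 12 factors tied to tissue macrophages 5 were present, and 6 were at 0, among them Gata6 of peritoneal macrophages and Sall1 of microglia.

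Among factors of other blood lineages Tcf3 (28.8 ± 2.74) and Ikzf1 (25.7 ± 1.71), which are widely used in blood cells, were present, as were Tal1 (3.76 ± 0.58) and Gata3 (2.08 ± 0.0666). The B cell factors Ebf1 and Pou2af1, the erythroid factor Gata1 and the T cell factors Tbx21 and Bcl11b were at 0, and Pax5 had 0.00333 TPM. The eye and pancreas factor Pax6 (chr2:105668900-105697364) was the exception among non-blood factors, with 13.3, 10.02 and 14.99 TPM. Sox2, Pou5f1, Nanog, Myod1 and Gata4 were at 0.

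Lysosomal genes had the largest share of present members of the 6 roles described. Of 118 protein_coding members 105 (89.0%) were present, beside 47.0% of all protein_coding genes, with a median of 42.6 TPM. They took 2.56% ± 0.177 of TPM, of which the glycosidase list, with Lyz2 at 9714 TPM, took 1.14% ± 0.0895. All 27 glycosidases and sulfatases, all 17 lipases, phosphatases and nucleases, and all 9 genes of mannose 6-phosphate sorting were present. Of the 17 genes on the cathepsin list 14 were present. Ctss, which also trims antigens, had 962, 779 and 754 TPM, and Ctsd 781, 754 and 703 TPM, so the leading proteases overlapped. The protective protein Ctsa stood at 710 ± 17.8, the asparaginyl protease Lgmn at 708 ± 6.96, Ctsz at 555 ± 29 and Ctsb at 492 ± 26. The bone collagenase Ctsk was low (0.793 ± 0.151), and Ctsg and Ctsw, proteases of neutrophil granules and cytotoxic cells, were at 0.

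Lysozyme was nearly all of 1 gene. Lyz2 exceeded its neighbour Lyz1 (chr10:117287797-117292868) by 67.0 ± 11.1 times in TPM and 70.6 ± 11.7 in counts. Lyz1 had 195, 127 and 125 TPM, and reads of these similar copies may have been divided between them. The hexosaminidase subunit Hexa (258 ± 12.7) and the glucuronidase Gusb (192 ± 18.2) followed. Psap, the precursor of the saposins, had 949, 814 and 713 TPM, and the cholesterol-handling Npc2 (184 ± 14.8) exceeded Npc1 (20.2 ± 3.86). Among membrane proteins Gpnmb (832 ± 48.2), Lamp1 (585 ± 15.6) and Cd63 (293 ± 30.2) were high, and Slc11a1, the metal transporter NRAMP1, had 104, 80.5 and 84.6 TPM.

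For several subunits of the lysosomal proton pump, transcripts of 1 isoform predominated. Of 25 V-ATPase genes 18 were present and 5 at 0. Atp6v1b2 (89.2 ± 0.558), Atp6v1c1 (87.0 ± 1.14) and Atp6v1e1 (83.0 ± 5.07) were present while their partners Atp6v1b1, Atp6v1c2 and Atp6v1e2 were at 0. Atp6v0d1 had 122.8, 124.3 and 118.7 TPM and Atp6v0d2, the osteoclast form, 0.41, 0.71 and 1.2 TPM. Of the a subunits Tcirg1, which encodes the form of osteoclasts, led at 132 ± 9.55 TPM, 8.05 ± 0.808 times Atp6v0a1 (16.4 ± 0.784) and 9.13 ± 0.703 times Atp6v0a2, with Atp6v0a4 at 0. In counts Tcirg1 exceeded Atp6v0a1 by 4.58 ± 0.177 times.

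**Figure D4:**
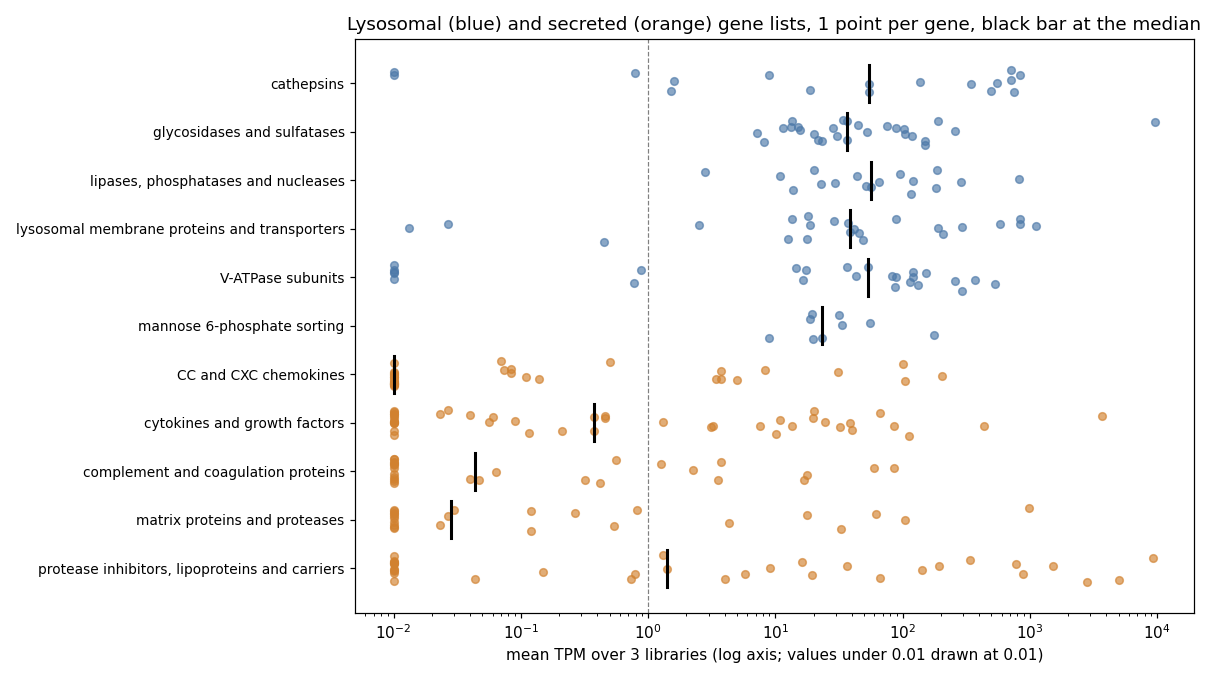
Mean TPM over 3 untreated libraries (x axis, logarithmic, values under 0.01 drawn at 0.01) of each protein_coding gene of the lysosomal lists (blue) and secreted lists (orange), with black bars at list medians and the dashed line at 1 TPM. Lysosomal lists sit mostly above 10 TPM, and in 4 of 5 secreted lists the median is under 1 TPM.

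Many lysosomal promoters carry the palindrome CACGTG, an E-box core bound by factors of the Tfeb family, which direct lysosomal gene expression. Tfe3 had 47.9 ± 3.41 TPM here, Tfeb 33.1 ± 4.82 and Mitf 21.1 ± 1.99. CACGTG lay within 250 bases before the start in 16 of 72 present lysosomal genes (22.2%). Its share was 6.66% of all 14030 promoters and 11.8% of those from 100 to 1000 TPM. Among lysosomal genes under 1 TPM, 1 of 9 (11.1%) held CACGTG. The longer palindrome TCACGTGA, which contains it, lay in 6 of the 72 (8.33%), against 0.998% of all. The shares among present genes of the other roles were 4.76% for receptors, 3.12% for secreted genes, 14.3% for lineage factors (3 of 21) and 9.88% for core genes. The 4 lysosomal promoters of highest level that hold CACGTG within 120 bases before the outermost annotated start, outside exons, are shown, with the palindrome in capitals (GRCm38.p6, RefSeq).
Lamp1, chr8:13159041-13159160, plus strand: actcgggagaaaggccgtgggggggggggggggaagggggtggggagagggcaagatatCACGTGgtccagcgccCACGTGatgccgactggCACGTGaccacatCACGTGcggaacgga
Atp6v0b, chr4:117887334-117887453, minus strand: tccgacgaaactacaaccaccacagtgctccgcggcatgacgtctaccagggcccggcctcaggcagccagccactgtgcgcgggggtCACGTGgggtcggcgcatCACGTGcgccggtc
Nagpa, chr16:5204013-5204132, minus strand: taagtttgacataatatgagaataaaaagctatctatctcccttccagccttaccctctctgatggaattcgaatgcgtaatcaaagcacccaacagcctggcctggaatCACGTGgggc
Ctsf, chr19:4855010-4855129, plus strand: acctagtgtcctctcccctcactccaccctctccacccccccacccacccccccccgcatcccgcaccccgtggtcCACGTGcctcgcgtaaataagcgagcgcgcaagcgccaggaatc
The Lamp1 promoter holds 4 copies and that of the V-ATPase subunit Atp6v0b 2. Lamp1 had 585 ± 15.6 TPM, Atp6v0b 374 ± 12.5, the sorting enzyme Nagpa 56.0 ± 9.98 and the cathepsin Ctsf 54.6 ± 6.97. No binding was measured.

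Of the 159 listed secreted genes 59 (37.1%) were present, beside 47.0% of all protein_coding genes. They took 2.76% ± 0.079 of TPM through a few members. The 5 over 1000 TPM were S100a4, Cst3, Mif, Lgals3 and S100a6. Transcript level does not tell how much of a protein is released and how much stays in the cell. Of 33 protein_coding chemokines 9 (27.3%) were present. Ccl9, a chemokine of resting myeloid cells, had 183, 229 and 199 TPM, Ccl3 had 71.7, 130 and 115 TPM and Ccl4 20.5, 38.6 and 35.0 TPM. Ccl3 and Ccl4 were lowest in None replicate 1. The membrane-bound Cxcl16 stood at 101 ± 14.2. Cxcl2 (5.01 ± 1.44) and Ccl5 (3.76 ± 2.37) were present at lower levels, Cxcl10 (0.507 ± 0.262) and Ccl2 (0.14) were low, and Cxcl1, Cxcl9, Ccl7 and Ccl17 were at 0.

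Of 43 cytokines and growth factors 18 were present. Mif had 4029, 3679 and 3361 TPM and progranulin (Grn) 489, 444 and 372 TPM. Tgfb1 stood at 113 ± 12.5 and Tnfsf9 at 85.3 ± 5.58. Tnf, the main early inflammatory cytokine, had 53.0, 75.5 and 69.5 TPM without stimulus. Il18, stored as a precursor, had 19.8 ± 1.73 TPM, while Il1b (0.377 ± 0.15), Il6 (0.0567), Il10 (0.06) and Il1a (0.0267) were low. Il12a, Il12b, Ifnb1, Csf2 and Csf3 were at 0. The ligand Csf1 of the abundant receptor Csf1r was low at 0.117 TPM.

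Of 26 complement and coagulation genes 8 were present. Properdin (Cfp) had 80.2, 92.9 and 83.6 TPM. C3 had 2.26 ± 0.2 TPM, and of the C1q chains C1qa and C1qb were at 0 and C1qc had 0.0467 TPM. Of 24 matrix proteins and proteases 6 were present. Spp1, osteopontin, had 775, 1119 and 1090 TPM and was lowest in None replicate 1. The sheddases Adam8 (104 ± 4.37) and Adam17 (62.4 ± 4.48) were present, and Mmp12 (0.827 ± 0.269) and Mmp9 (0.267) were low. Fn1, Timp1 and Thbs1 were at 0.

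Most of the secreted TPM fell on the list of protease inhibitors, lipoproteins and carriers, which also holds S100 proteins, galectins and B2m. Of 33 genes 18 were present and 4 exceeded 1000 TPM, and the list took 2.11% ± 0.0515 of TPM. S100a4 (chr3:90603771-90606045), a calcium-binding protein that cells also release, had 9018, 9532 and 9192 TPM, so it overlapped Lyz2. Cystatin C (Cst3), an inhibitor of cathepsins, had 5097, 5238 and 4638 TPM. S100a6 stood at 1526.5 ± 90.2, the lipoprotein lipase Lpl at 195 ± 4.78 and the protease inhibitor Slpi at 36.6 ± 2.82. The neutrophil pair S100a8 (0.783 ± 0.361) and S100a9 (0) was low or undetected. Apoe, abundant in many tissue macrophages, had 3.07, 5.1 and 4 TPM.

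Of 11 genes of the phagocyte NADPH oxidase list 8 were present. The membrane subunits of the NADPH oxidase, Cyba (508 ± 30.8) and Cybb (395 ± 51), and the cytosolic subunits Ncf1 (307 ± 19.5) and Ncf4 (192 ± 4.42) all exceeded 100 TPM. Class I antigen presentation was represented by B2m (773 ± 65.1) and H2-D1 (336 ± 22.5). Of class II the invariant chain Cd74 had 575, 614 and 557 TPM, yet its partners H2-Aa (0.0767), H2-Ab1 (0.0467) and H2-Eb1 (0.143) and their activator Ciita (0.107) were low. The costimulator Cd86 had 0.01 TPM and Cd80 6.05 ± 1.01. Of 15 osteoclast genes 8 were present, with Car2 at 220 ± 12.1 and Ctsk, Calcr and Itgb3 low or at 0.

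The libraries carried transcripts of dividing male cells. Of 36 genes on the proliferation list, which also holds cell cycle inhibitors, 32 were present, beside 47.0% of all protein_coding genes. Top2a stood at 143 ± 6.99, Cdk1 at 141 ± 23.9 and Mki67 at 79.8 ± 4.58 TPM. Among cell cycle inhibitors Cdkn1a had 266 ± 20.7 TPM, the highest level of this list, Cdkn1b 33.9 ± 1.17 and Cdkn2c 22.4 ± 1.65. Cdkn2a and Cdkn2b were at 0, while the adjacent Mtap had 24.97, 26.67 and 25.65 TPM. Myc was low at 0.42, 0.7 and 0.69 TPM. The Y-linked Eif2s3y (72.4 ± 2.06), Ddx3y (15.8 ± 0.673), Kdm5d (10.6 ± 0.465) and Uty (5.99 ± 0.489) were present and Xist was at 0.

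The spread between libraries was small above 1 TPM. The median coefficient of variation of TPM was 9.88% from 1 to 10 TPM, 6.32% from 10 to 100, 5.3% from 100 to 1000 and 4.91% over 1000 TPM. The counting part, computed from the counts of each gene, had medians of 6.99%, 3.35%, 1.7% and 0.692%. Under 1 TPM both were 86.6%. Counts there were so few that only a few values are possible, so this match says little about the spread. Of 7010 genes with at least 10 TPM, 61 varied by over 25% in TPM and 19 of these also did so in CPM. The largest TPM spread belonged to Zfp950, with 6.68, 23.2 and 3.72 TPM on 176, 164 and 140 counts. Mycbp (44.1, 9.03 and 22.7 TPM on 222, 200 and 194 counts) and Anpep (12.3, 18.2 and 36.7 TPM on 608, 729 and 617 counts) likewise moved in TPM but little in counts.

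Of the 20 genes that varied by over 25% in CPM, None replicate 1 was lowest in 14 and highest in 6. Rgs1, a regulator of G protein signalling, had 155, 525 and 520 counts. The immediate early genes Fos (2696, 4774 and 4328 counts) and Dusp1 (362, 667 and 628), the stress gene Ier3 (619, 1295 and 1234) and the chemokines Ccl3 (537, 1014 and 919) and Ccl4 (121, 238 and 220) shared this pattern. In the other direction Lyz1, Igf1, Tgfbr1 and Tnfrsf1b were highest in None replicate 1, the last with 3289, 2341 and 2157 counts. Over all 7010 genes None replicate 1 was farthest from the mean of the 3 in 45.4% by TPM and 50.9% by CPM. These genes were chosen for their spread, and no cause was tested.

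**Figure D5:**
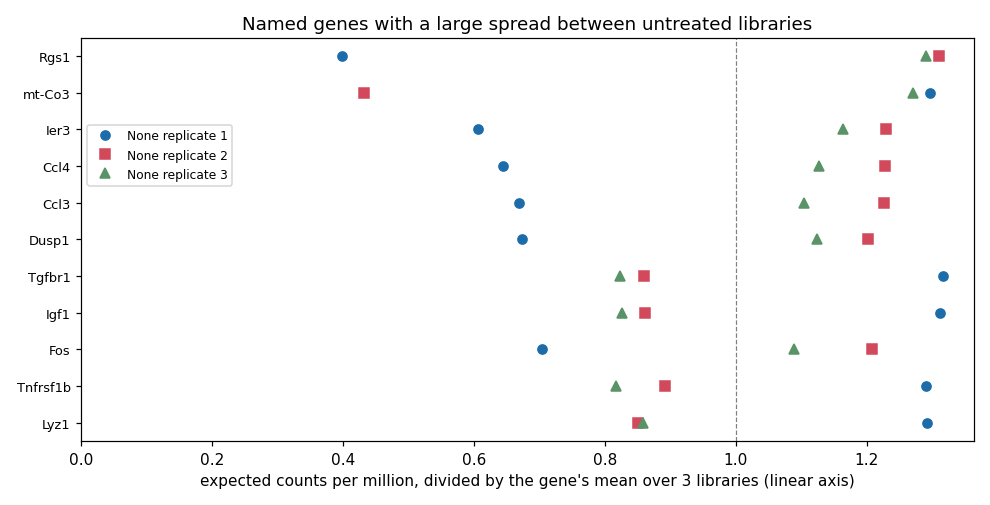
CPM in each untreated library, divided by the mean of the 3 (x axis, linear), for the genes named in the text that have at least 10 mean TPM and a coefficient of variation over 25% (y axis). None replicate 1 is lowest for Rgs1, Fos, Ier3, Ccl3 and Ccl4, and highest for Tnfrsf1b, Igf1, Tgfbr1 and Lyz1.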

How the data were processed

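The 3 None libraries were sequenced as paired 100-base reads and filtered with SOAPnuke, per the labels' protocols. STAR 2.7.10a and RSEM 1.3.1 are listed, with GRCm38, in the submitters' processing notes. The deposited TPM values are adjusted for transcript length and sum to 1000000 per library, for 50600 genes. The deposited expected counts are estimated reads per gene that the authors left unscaled. Strandedness and RNA selection are not given in the sources used here. Overlapping antisense genes can therefore share reads. The 15 other library columns of either matrix were not used. Column names beginning with Non were matched to the None titles by replicate number. All pairs of libraries varied beyond counting noise (chi-square per degree of freedom 3.15 to 8.42), so none was treated as a library deposited again, and the spread between them may still be technical.

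Genes were classed by mean TPM over the libraries, with bounds of 1, 10, 100 and 1000, and no test was made because there is 1 group. Rows without a symbol held 0.0297% to 0.0318% of counts. The 48 gene lists matched 830 genes, 824 of them protein_coding, and 2 entries were not matched. Members and lists were chosen with earlier results of these data known. Named genes are the 15 highest, the highest 5 and those under 1 TPM of each list, receptor and lineage members, the 10 of largest spread and those at class bounds. Other genes, including further list members, Fos, Dusp1 and neighbours, were chosen after their values were seen. Promoters are RefSeq's on GRCm38.p6 and coding lengths GENCODE M21's. The steps, in Python 3.11.15 with pandas 2.3.3 and numpy 2.4.6, were tested on simulated data. Some members are counted in the lists but not reported here by name.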

Additional observations from a re-analysis of the deposited data

How the results depend on the processing

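Leaving out each library in turn gave 11459 to 11474 genes under 1 TPM, 3108 to 3185 from 1 to 10, 5981 to 6033 from 10 to 100, 865 to 880 from 100 to 1000 and 138 to 140 over 1000, and 472 to 473 list members present. Without None replicate 1 Axl dropped below 1 TPM and Ifih1 and Ccnd2 rose above it. The share of TPM over 1000 was 46.1% in each of these, and the median CpG ratio of that class 0.781 to 0.808. Classing by the lowest library gave shares of 0.0752%, 1.88%, 20.1% and 45.4% for the classes under 1, 1 to 10, 10 to 100 and over 1000. TPM rescaled over protein_coding genes gave 1.5%, 20.8%, 24.6% and 53.0% from 1 to 10 upward, and TPM without mitochondrially encoded genes 1.56%, 20.4%, 23.03% and 42.4%. CPM, which are not per length, gave 1703 genes from 1 to 10 and 1761 from 100 to 1000, and shares of 0.0527%, 0.814%, 28.1%, 39.8% and 26.7% by class. With at least 10 counts per gene the median variation under 1 TPM was 24.4%. Presence at a mean of 10 counts raised markers of other cells from 5 to 8. The other 159 recomputed headline values stayed within 1 SD, or within 1.5 times for counts and medians. Of the numbers of present members of single lists, 472 stayed within 1.5 times and 8, over 5 lists, did not. The median SD of log2(TPM + 1) was 0.113, 0.0876, 0.0766 and 0.0711 from 1 to 10 upward. No paired analysis was possible because 1 group was analysed. Depth limits statements on genes under 1 TPM, which held few counts.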
